A study of Mus musculus with 4 samples.

Results

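The 10 genes described here encode 9 receptors that guide myeloid cells toward chemical signals and 1 secreted attractant, prokineticin 2. They were taken by symbol from the deposited count table, in which all 10 had a row among 55416 gene IDs, and all 10 passed the filter on low counts and were tested. The RNA came from myeloid-derived suppressor cells (MDSCs), a mixture of immature granulocytic and monocytic cells that builds up in hosts with tumors and dampens T cell responses. Flow cytometry isolated them from ascitic fluid 14 days after the hosts had received the mouse T cell lymphoma line EL4. The hosts were wild type (WT, 2 libraries) or Sphk2 knockout mice (Sphk2 KO, 2 libraries). Sphk2 encodes sphingosine kinase 2, which phosphorylates sphingosine. All 4 libraries came from tumor-bearing hosts, so no library represents a mouse without a tumor. The labels give neither the strain, age and sex of the mice nor the surface markers used for the sort, the extent of the deletion across tissues, or whether animals were pooled. Nor do they state that each library is a different mouse, and the p-values therefore reflect the spread among these samples, which may be technical.

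Chemoattractant receptors span the membrane with a bundle of helices and signal mostly through inhibitory G proteins. The released G protein subunits activate phosphoinositide 3-kinase gamma and guanine exchange factors of Rac, and the cell polarises and crawls up the gradient. Neutrophils leave the bone marrow when signals through Cxcr2 outweigh those through Cxcr4, which holds them there, and classical monocytes leave it through Ccr2. Formyl peptide and complement C5a receptors act late, close to bacteria or damaged tissue. Prok2, also called Bv8, is made by neutrophils and binds the prokineticin receptors Prokr1 and Prokr2. It is known for promoting blood vessel growth in tumors infiltrated by these cells.

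The libraries held 14087613 to 24685576 counts. Sphk2 itself was at 54.7 and 53.6 CPM (counts-per-million, scaled between libraries by the trimmed mean of M values, TMM) in WT and at 4.06 and 4.44 CPM in Sphk2 KO. The neutrophil marker genes with the most counts, S100a9 and Csf3r, lay at 5231 to 11973 and 5318 to 9380 CPM over the libraries, and the monocyte and macrophage markers Psap and Fn1 at 652 to 1253 and 157 to 1170 CPM. None of the 14 neutrophil and 14 monocyte and macrophage markers was at 0 in every library. Transcripts of other cells were present too. The B cell markers with the most counts were Ighm (318 to 783 CPM) and Pax5 (51.5 to 122 CPM). Of the T cell markers, Cd5 (11.1 to 12.4 CPM) and Cd3d (5.40 to 9.46 CPM) had the most counts, and Cd3e lay at 0.49 to 2.17 CPM.

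Promoter windows of 4 genes are shown because the values of these genes differed most between the genotypes, one of them downward. Each window runs from 250 bases before to 50 bases after the gene's start and was taken from RefSeq (GRCm38.p6, an earlier build than the GRCm39 of the counts), which held a window for all 10 genes. Capitals mark matches to any of 8 short motifs, searched on both strands. These were TATAAA (in 13.6% of 32851 windows), CCAAT (37.4%), the GC box GGGCGG (35.7%), the purine-rich ETS-type motif GAGGAA (28.3%), the C/EBP-type motif TTGCNNAA (10.8%), the AP-1-type motif TGANTCA (7.8%), the E-box CACGTG (7.2%) and the NF-kB-type motif GGGNNTTCC (5.8%).
Prok2, chr6:99726343-99726642 (- strand): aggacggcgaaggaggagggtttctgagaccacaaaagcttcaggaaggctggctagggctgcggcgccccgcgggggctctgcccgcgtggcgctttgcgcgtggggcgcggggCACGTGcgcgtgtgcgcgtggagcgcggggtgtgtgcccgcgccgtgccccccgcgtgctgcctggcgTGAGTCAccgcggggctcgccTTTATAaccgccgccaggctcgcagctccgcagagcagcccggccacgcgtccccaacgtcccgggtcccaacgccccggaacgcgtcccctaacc
Fpr1, chr17:17883890-17884189 (- strand): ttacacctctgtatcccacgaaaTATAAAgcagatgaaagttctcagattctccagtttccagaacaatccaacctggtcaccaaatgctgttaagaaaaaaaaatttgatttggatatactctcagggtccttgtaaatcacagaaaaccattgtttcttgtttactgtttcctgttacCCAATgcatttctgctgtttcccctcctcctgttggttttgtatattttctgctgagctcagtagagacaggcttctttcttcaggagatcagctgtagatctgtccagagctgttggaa
Fpr2, chr17:17887574-17887873 (+ strand): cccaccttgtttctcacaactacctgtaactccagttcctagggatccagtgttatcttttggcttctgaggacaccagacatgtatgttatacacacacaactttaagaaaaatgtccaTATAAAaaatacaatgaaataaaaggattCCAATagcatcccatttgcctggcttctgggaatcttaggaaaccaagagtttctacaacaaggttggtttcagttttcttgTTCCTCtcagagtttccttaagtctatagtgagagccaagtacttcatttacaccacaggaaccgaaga
Ccr2, chr9:124101933-124102232 (+ strand): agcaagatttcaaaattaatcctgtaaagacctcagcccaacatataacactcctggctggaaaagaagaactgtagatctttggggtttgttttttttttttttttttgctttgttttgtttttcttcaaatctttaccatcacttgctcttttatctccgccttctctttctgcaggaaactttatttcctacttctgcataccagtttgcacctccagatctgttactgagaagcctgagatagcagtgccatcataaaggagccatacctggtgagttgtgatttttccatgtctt
The Prok2 window was the richest in G and C of the 10 (73.7%, against a median of 52.7% over all windows) and held an E-box that starts 135 bases before the gene's start, an AP-1-type match 67 bases before it and a TATAAA match, on the other strand, 46 bases before it. Fpr1 and Fpr2 lie next to each other on chromosome 17 and point away from each other, with 3885 bases between their starts. Both windows held a TATAAA and a CCAAT match, at different distances from the start, and the Fpr2 window also held GAGGAA. The Ccr2 window held none of the 8 motifs. Over the 10 genes, TATAAA was found in 5 windows, CCAAT and GAGGAA in 4 each, GGGCGG in 3, TGANTCA in 2, CACGTG in 1, and TTGCNNAA and GGGNNTTCC in 0. No match of one motif overlapped a match of another. A match is a run of letters, and none was tested for binding.

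In all libraries the sorted cells carried more RNA of Cxcr2 per length than of any of the other 9 genes. Levels of different genes are given here as TPM, here the counts divided by annotated exon length and rescaled to the same total in every library. In TPM Cxcr2, the receptor for the neutrophil-attracting CXC chemokines, lay at 1477 to 2295, above 99.9% of 28793 detected genes. Next came Ccr1, a receptor for inflammatory CC chemokines (842 to 1197), Cxcr4, the receptor for Cxcl12 (754 to 941), and C5ar1, the receptor for complement C5a (757 to 863). The order of these last 3 was not the same in every library. Fpr2 and Fpr1, the formyl peptide receptors, followed at 303 to 451 and 199.7 to 397, with Fpr2 above Fpr1 in each of the 4 libraries although their ranges overlapped. Ptafr, the receptor for the lipid platelet-activating factor, lay at 179 to 215. Ccr2, the receptor for Ccl2, was at 171 and 91.5 TPM in WT and at 75.01 and 32.4 TPM in Sphk2 KO. Prok2 was at 64.4 and 69.4 TPM in WT and at 104 and 128 TPM in Sphk2 KO, so that Ccr2 lay above Prok2 in both WT libraries and below it in both Sphk2 KO libraries. C3ar1, the receptor for complement C3a, was the least abundant of the 10, at 4.05 to 7.67. The exon lengths come from the GENCODE M21 annotation, which may differ from the one used for counting.

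**Figure D1:**
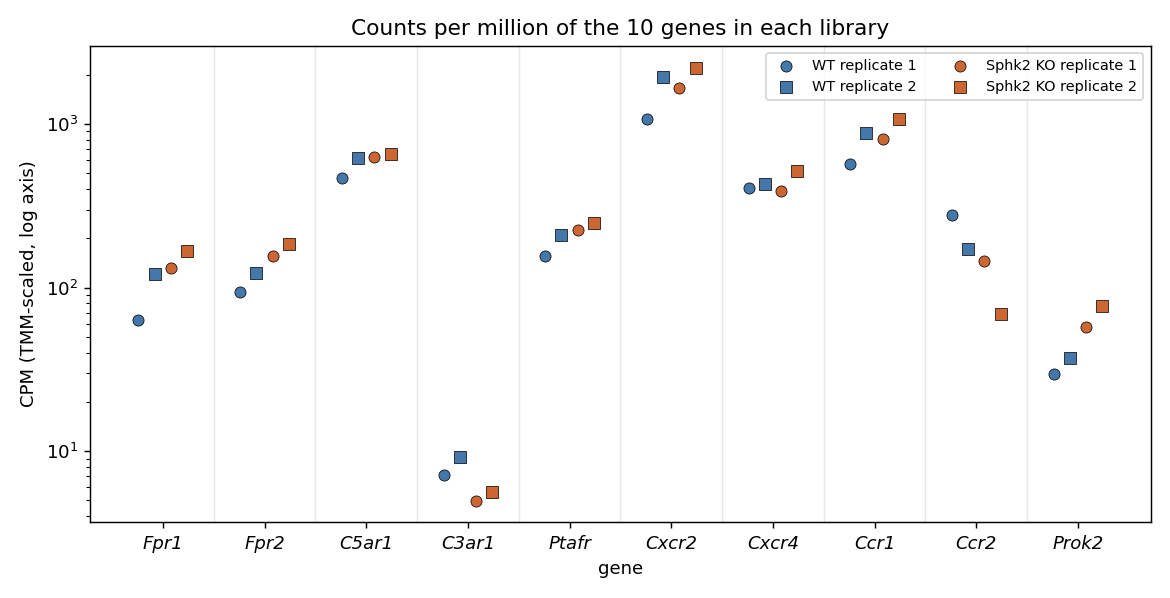
CPM (TMM-scaled, log axis) of the 10 genes, 1 point per library, with circles for replicate 1 and squares for replicate 2 of WT (blue) and Sphk2 KO (orange). Prok2 and Fpr2 lie higher and Ccr2 and C3ar1 lower in both Sphk2 KO libraries, while Cxcr2, Cxcr4 and Ccr1 overlap between the genotypes, and Cxcr2 runs from 1079 to 2211 CPM. CPM compare libraries within a gene, not genes of different length.

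The comparison of the genotypes asks which transcripts differ in level between MDSCs sorted from Sphk2 KO and from WT hosts with tumors. Prok2, Fpr1 and Fpr2 had values 1.57 to 2.01 times as high in Sphk2 KO as in WT, and Ccr2 had 0.476 times the WT value, but none of the 10 genes passed the test over all genes. With edgeR (quasi-likelihood test, Benjamini-Hochberg adjusted p under 0.05) 0 of 10 were called, where 0.109% of all 16566 tested genes were (0.0423% higher and 0.0664% lower in Sphk2 KO). At an unadjusted p under 0.05 there were 4 of 10, 3 of them above and 1 below WT, against 10.5% of all tested genes (3.06% above and 7.47% below). DESeq2 called 1 of the 10, Prok2, against 0.459% of all tested genes, and limma-voom called 0, against 0.115%. Without the count filter edgeR called 4 of the 10, against 2.07% of the genes in that test. Leaving out WT replicate 2 gave 5 of the 10 against 5.93% of all, and leaving out Sphk2 KO replicate 1 gave 2 of the 10 against 3.57%. Leaving out WT replicate 1 or Sphk2 KO replicate 2 gave 0 of the 10, against 0.319% and 0.338%. The genotypes did not overlap in 7 of the 10 genes, with Sphk2 KO above in 5 and below in 2, as in 43.2% of all tested genes (20.5% above and 22.7% below). The log2 fold change (Sphk2 KO against WT) was above 0 in 8 of the 10 genes, against 49.9% of all tested genes. Its median was 0.36 over the 10 genes and -0.001 over all tested genes. The 10 genes were chosen with earlier results of these data known, so these counts and shares are a description, not a test of the list. In these bulk libraries fewer cells of a type and less RNA per cell cannot be told apart.

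**Figure D2:**
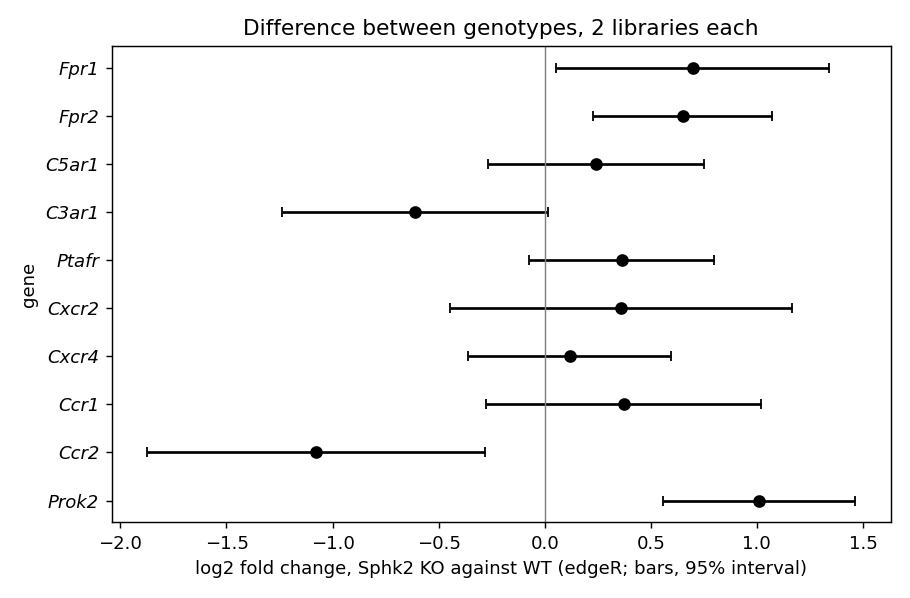
Log2 fold change of each of the 10 genes between Sphk2 KO and WT (x axis, edgeR, 2 libraries each), with 95% intervals for single genes, not adjusted for the number of genes tested. The intervals of Prok2 (0.56 to 1.46), Fpr2 (0.23 to 1.07), Fpr1 (0.05 to 1.34) and Ccr2 (-1.87 to -0.28) lie to one side of 0, and those of the other 6 genes include it.

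Prok2 (ENSMUSG00000030069, chromosome 6) had the largest positive difference of the 10. Its level was 29.6 and 37.2 CPM in WT replicates 1 and 2 and 57.1 and 77.3 CPM in Sphk2 KO replicates 1 and 2. Both Sphk2 KO libraries were above both WT libraries, and on the log2 scale the difference between the genotype means exceeded the gap within either genotype. Its mean was 33.4 ± 5.38 CPM in WT against 67.2 ± 14.3 CPM in Sphk2 KO (SD, n = 2 each). The fitted log2 fold change was 1.01 (SE 0.197). The Benjamini-Hochberg adjusted p was 0.197 with edgeR and 0.0188 with DESeq2. Prok2 was also called by edgeR without WT replicate 2 (log2 fold change 1.20, adjusted p = 0.00237) and without Sphk2 KO replicate 1 (1.20, adjusted p = 0.000719). Its receptors were barely detected, with 4 to 6 counts of Prokr1 and 1 to 3 counts of Prokr2 in a library. By its unadjusted p Prok2 ranked 69th of 16566 genes. Prok2 overlaps the noncoding Gm26748 on the opposite strand, without shared exonic bases in the annotation.

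The formyl peptide receptors sense N-formylated peptides that bacteria and mitochondria release, and Fpr2 also binds annexin A1 and serum amyloid A. Fpr1 (ENSMUSG00000045551, chromosome 17) was at 63.4 and 121 CPM in WT and at 132 and 166 CPM in Sphk2 KO. WT replicate 1 stood low, and WT replicate 2 lay closer to Sphk2 KO replicate 1 than to its own replicate. The log2 fold change of Fpr1 was 0.70 (SE 0.281, adjusted p by edgeR = 0.448). Without WT replicate 1 it was 0.29, and without WT replicate 2 it was 1.25, with an edgeR adjusted p of 0.000524. Fpr2 (ENSMUSG00000052270, chromosome 17) was at 94.3 and 123 CPM in WT and at 157 and 185 CPM in Sphk2 KO, with no overlap. Its log2 fold change was 0.65 (SE 0.184, adjusted p by edgeR = 0.4015), and edgeR called it without WT replicate 2 (0.87, edgeR adjusted p = 0.00839). Of the 75-base sequences of the longest annotated Fpr2 transcript, 25.6% also occur in Fpr3 or Gm5966, and Fpr2 overlaps Fpr3 on its own strand, so its value is uncertain. Fpr3 held at most 3 counts in a library, and 0 counts of Fpr-rs3, Fpr-rs6 and Fpr-rs7 and 1 of Fpr-rs4 were found over the 4 libraries.

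The complement receptors had differences of opposite sign. C5ar1 (ENSMUSG00000049130, chromosome 7) was at 467 and 620.0 CPM in WT and at 628 and 656 CPM in Sphk2 KO. WT replicate 2 lay just below the Sphk2 KO libraries, and WT replicate 1 stood apart from all 3. The log2 fold change of C5ar1 was 0.24 (SE 0.222, 95% interval -0.27 to 0.75, edgeR adjusted p = 0.708). Leaving out WT replicate 1 gave 0.04, and leaving out WT replicate 2 gave 0.48. C5ar1 is the only one of the 10 genes on chromosome 7, which also holds Sphk2. C3ar1 (ENSMUSG00000040552, chromosome 6) was at 7.10 and 9.23 CPM in WT and at 4.99 and 5.64 CPM in Sphk2 KO, from 70 to 134 counts a library. Both Sphk2 KO libraries lay below both WT libraries, with a log2 fold change of -0.61 (SE 0.273, adjusted p by edgeR = 0.474). It was -0.40 with WT replicate 2 left out and -0.80 with WT replicate 1 left out. With Sphk2 KO replicate 1 left out it was -0.54, and with Sphk2 KO replicate 2 left out -0.70. The log2 ratio of C5ar1 to C3ar1 counts within a library, looked at after the values were seen, was 6.04 and 6.07 in WT and 6.98 and 6.86 in Sphk2 KO. C5ar2, the second receptor for C5a, was at 95.7 to 149.8 CPM with overlapping genotypes (log2 fold change 0.22, SE 0.207).

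Ptafr (ENSMUSG00000056529, chromosome 4) was at 157 and 209 CPM in WT and at 224 and 247 CPM in Sphk2 KO. The groups did not overlap, but the gap within WT was wider than the gap between WT replicate 2 and Sphk2 KO replicate 1. Its log2 fold change was 0.36 (SE 0.190, 95% interval -0.07 to 0.80, edgeR adjusted p = 0.533). It was 0.16 with WT replicate 1 left out and 0.60 with WT replicate 2 left out, and it was not called in either fit. Enzymes that act on its ligand were not called either. Lpcat2, which makes platelet-activating factor in inflammatory cells, had a log2 fold change of 0.30 (SE 0.212), and Pla2g7, which degrades it, of 0.38 (SE 0.246), both with overlapping genotypes.

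Among the chemokine receptors, Cxcr2, Cxcr4 and Ccr1 overlapped between the genotypes and Ccr2 did not. Cxcr2 (ENSMUSG00000026180, chromosome 1) was at 1079 and 1939.6 CPM in WT and at 1659 and 2211 CPM in Sphk2 KO, so the lowest and the second highest library were both WT. Its log2 fold change of 0.36 (SE 0.351) had a 95% interval from -0.45 to 1.16, and turned to -0.02 without WT replicate 1. Without WT replicate 2 it was 0.86, and Cxcr2 was then called (edgeR adjusted p = 0.0393). With Sphk2 KO replicate 1 left out it was 0.54, and with Sphk2 KO replicate 2 left out 0.14. Ccr1 (ENSMUSG00000025804, chromosome 9) followed the same order of libraries, with 572 and 883 CPM in WT against 814 and 1072 CPM in Sphk2 KO (fitted log2 fold change 0.37, SE 0.282, 95% interval -0.28 to 1.02). Its value was 0.08 with WT replicate 1, 0.17 with Sphk2 KO replicate 2 and 0.74 with WT replicate 2 left out. Cxcr4 (ENSMUSG00000045382, chromosome 1) was at 408 and 427 CPM in WT and at 389.9 and 516 CPM in Sphk2 KO, with WT between the Sphk2 KO libraries. Its log2 fold change was 0.12 (SE 0.209, 95% interval -0.36 to 0.60). The sign of the Cxcr4 value flipped with library size alone as the scaling (-0.06) and without Sphk2 KO replicate 2 (-0.09), and the value was 0.30 with Sphk2 KO replicate 1 left out and 0.07 with WT replicate 1 left out.

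Ccr2 (ENSMUSG00000049103, chromosome 9), which monocytes use to leave the marrow and enter tissue, had the largest difference in size. It was at 278 and 173 CPM in WT and at 145 and 69.3 CPM in Sphk2 KO. All 4 libraries were spread apart, with WT replicate 2 and Sphk2 KO replicate 1 nearest to each other. Its mean was 225 ± 74.2 CPM in WT against 107 ± 53.6 CPM in Sphk2 KO (SD, n = 2 each). The fitted log2 fold change was -1.08 (SE 0.347, adjusted p by edgeR = 0.412). Ccr2 was called without WT replicate 2 (-1.36, edgeR adjusted p = 0.00145) and without Sphk2 KO replicate 1 (-1.71, edgeR adjusted p = 0.000701). Leaving out Sphk2 KO replicate 2 gave -0.63 and leaving out WT replicate 1 gave -0.70, neither of them called.

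Ratios of 2 receptors within a library do not depend on how libraries are scaled. The log2 ratio of Ccr2 to Cxcr2 counts was -1.96 and -3.49 in WT and -3.52 and -5.00 in Sphk2 KO, a difference of -1.53 between the means. That difference was -0.77 with WT replicate 1 left out and -0.79 with Sphk2 KO replicate 2 left out, and it was -2.30 with WT replicate 2 and -2.27 with Sphk2 KO replicate 1 left out. The Sphk2 KO libraries lay below the WT libraries, but WT replicate 2 and Sphk2 KO replicate 1 were almost level (exact permutation test, two-sided, p = 0.333, the smallest p that 2 libraries against 2 can give, and 0.667 adjusted over the 2 ratios tested). The log2 ratio of Cxcr4 to Cxcr2 counts was -1.40 and -2.18 in WT and -2.09 and -2.10 in Sphk2 KO, with overlap (exact permutation test, two-sided, p = 1, also after adjustment). The difference between the means was -0.30, and 0.09 with WT replicate 1 left out and -0.69 with WT replicate 2 left out.

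**Figure D3:**
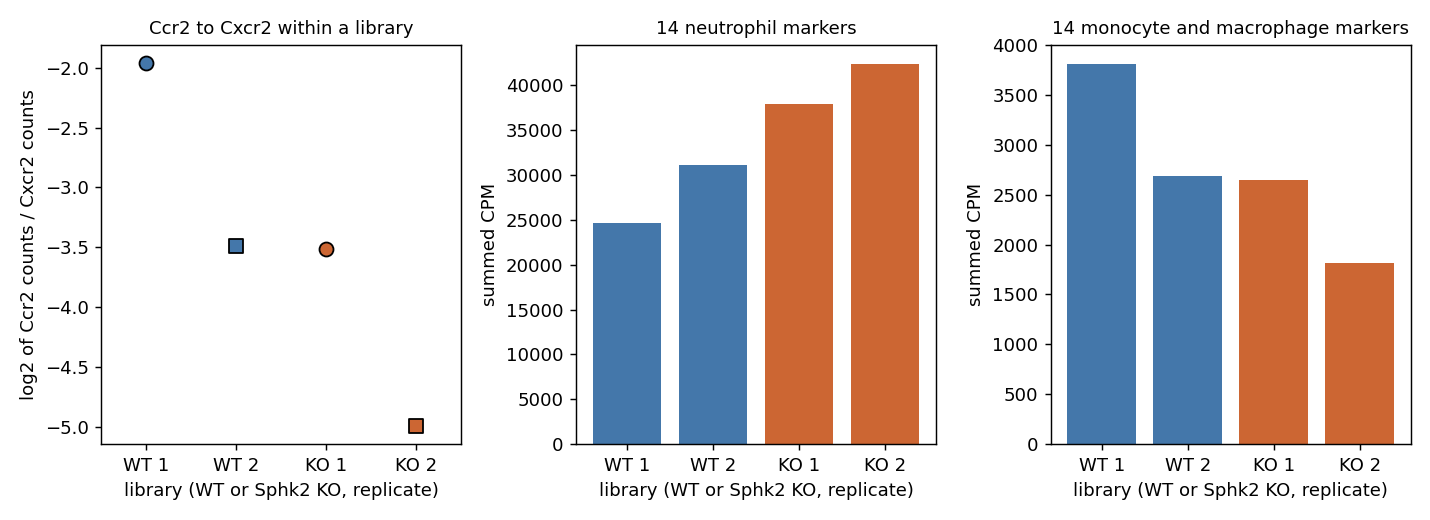
Left, log2 ratio of Ccr2 to Cxcr2 counts in each library. Middle and right, summed CPM of 14 neutrophil and of 14 monocyte and macrophage marker genes in the same libraries (bars from 0). The ratio is highest in WT replicate 1 (-1.96) and lowest in Sphk2 KO replicate 2 (-5.00), and the marker sums have their extremes in the same libraries.

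Marker genes of cell types differed between the same libraries. The summed level of the 14 neutrophil markers was 24608.6 and 31132.6 CPM in WT against 37930.5 and 42400.3 CPM in Sphk2 KO. All 14 had log2 fold changes above 0, with 0 called. Sphk2 KO lay above WT without overlap in 9 of the 14 and below in 0, where 20.5% of all tested genes lay above. The summed level of the 14 monocyte and macrophage markers was 3812 and 2686 CPM in WT against 2644 and 1811 CPM in Sphk2 KO. Of these 14, 13 had log2 fold changes below 0, with 0 called. Both Sphk2 KO libraries lay below both WT libraries in 4 of the 14 and above in 0, where 22.7% of all tested genes lay below. Those 4 were Ctss (log2 fold change -0.38, SE 0.167), Irf8 (-0.81, SE 0.295), Klf4 (-0.62, SE 0.284) and Ms4a6c (-0.82, SE 0.271). Psap (-0.45, SE 0.281) and Fn1 (-1.34, SE 0.548), which had the most counts, overlapped between the genotypes. Fn1 overlapped narrowly, at 503 CPM in WT replicate 2 and 504 CPM in Sphk2 KO replicate 1. Csf1r, the only 1 of the 14 above 0, had a log2 fold change of 0.02. The part of cell composition in the differences of Ccr2, Prok2, Fpr1 and Fpr2 was not tested. B cell markers, 6 of 6 with values below 0, summed to 1159.5 and 1000.4 CPM in WT against 1107 and 523 CPM in Sphk2 KO. Sphk2 KO lay below WT without overlap in 5 of the 6, and Ighm, with the most counts, overlapped. The 8 T cell markers, which EL4 cells can share, summed to 41.7 and 37.1 CPM in WT against 26.7 and 25.8 CPM in Sphk2 KO. The defining T cell marker Cd3e had 11 to 41 counts in a library. Red cell and platelet markers summed to 67.0 and 174 CPM in WT against 284 and 488 CPM in Sphk2 KO. Most of this came from the globin genes Hbb-bs and Hba-a1. Of 5 tested, 4 lay above WT in both Sphk2 KO libraries and 0 below. Markers of dendritic cells (150 to 196 CPM), of eosinophils, basophils and mast cells (101 to 116 CPM) and of natural killer cells (1.5 to 2.9 CPM) overlapped between the genotypes in their sums, except that the natural killer sum was lower in both Sphk2 KO libraries.

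The 4 libraries took the same order in 5 of the 10 genes. Fpr1, Fpr2, C5ar1, Ptafr and Prok2 were lowest in WT replicate 1, then WT replicate 2, Sphk2 KO replicate 1 and Sphk2 KO replicate 2, an order that 10% of all tested genes had, and Ccr2 had the reverse order, as 13.3% of all tested genes did. WT replicate 1 was the lowest library in 7 of the 10 genes and in 32.9% of all tested genes, and Sphk2 KO replicate 2 was the highest in 8 of the 10 and in 31.4% of all. In 5 of the 10 genes (Fpr1, Cxcr2, Ccr1, C5ar1 and Ptafr) the log2 gap between the WT libraries exceeded the difference between the genotype means, which was so in 57.6% of all tested genes.

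At a mean of 10 CPM or more 7829 tested genes were compared, and those with a pattern over the 4 libraries most like that of Cxcr2 were Ipcef1 (root mean square distance of centred log2 CPM 0.007), Il1rap (0.027), which encodes the shared chain of interleukin-1 receptors, and Cd33 (0.028), a sialic acid-binding lectin of myeloid cells. Il1rap was at 292 and 514 CPM in WT and at 431 and 601 CPM in Sphk2 KO. For Ccr2 they were Lgals1 (0.039), which encodes galectin 1, Ifi30 (0.052), a lysosomal thiol reductase, and Dpysl2 (0.054). Ifi30 was at 99.7 and 64.7 CPM in WT and at 52.6 and 27.2 CPM in Sphk2 KO. With 4 libraries such likeness is a description only.

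Ligands of these receptors and enzymes that make them were followed in a list of 29 genes. Of 21 tested, 0 were called, 13 had log2 fold changes above 0 and 8 below, and the median was 0.15. Sphk2 KO lay above WT without overlap in 8 of the 21 and below in 2. Among all tested genes 20.5% lay above and 22.7% below. Anxa1, which encodes the Fpr2 ligand annexin A1, was at 827 and 918 CPM in WT and at 1138 and 1154 CPM in Sphk2 KO (fitted log2 fold change 0.39, SE 0.230). Saa3, a member of the serum amyloid A family, was at 17.9 and 9.52 CPM in WT and at 27.7 and 32.2 CPM in Sphk2 KO (fitted log2 fold change 1.12, SE 0.285, adjusted p by edgeR = 0.373). Camp, which encodes cathelicidin, another Fpr2 ligand and also one of the neutrophil markers above, was at 455 and 324 CPM in WT and at 658 and 540.1 CPM in Sphk2 KO (fitted log2 fold change 0.62, SE 0.235). All 3 were higher in both Sphk2 KO libraries, and none was called.

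The Ccr1 ligands had differences of both signs. Ccl6 was at 306 and 516 CPM in WT and at 539 and 721 CPM in Sphk2 KO (fitted log2 fold change 0.62, SE 0.286), and Ccl9 at 80.5 and 49.2 CPM in WT and at 46.7 and 30.2 CPM in Sphk2 KO (fitted log2 fold change -0.76, SE 0.274). Neither pair of groups overlapped. Ccl3 (0.33, SE 0.324) and Ccl4 (0.15, SE 0.288) overlapped between the genotypes. Of the Cxcr2 ligands, Cxcl2 was at 501 and 966 CPM in WT and at 559 and 769 CPM in Sphk2 KO (fitted log2 fold change -0.14, SE 0.329), with overlap. Cxcl12, the Cxcr4 ligand, had at most 1 count in a library, while Mif, which also binds Cxcr4, was at 16.6 and 13.2 CPM in WT and at 10.6 and 13.2 CPM in Sphk2 KO. Ccl2, the Ccr2 ligand, was at 6.20 and 3.25 CPM in WT and at 7.62 and 7.60 CPM in Sphk2 KO (fitted log2 fold change 0.67, SE 0.339). C3, the source of C3a, had a log2 fold change of -0.07 (SE 0.231) and properdin, Cfp, of 0.14 (SE 0.145). Lpcat1 gave -0.28 (SE 0.229) and the phospholipase Pla2g4a 0.17 (SE 0.192).

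Of 33 related receptors 23 were tested, and 0 were called. Log2 fold changes were above 0 in 6 and below 0 in 17, with a median of -0.36. Both Sphk2 KO libraries lay below both WT libraries in 10 of the 23 and above in 1, where 22.7% of all tested genes lay below and 20.5% above. Cmklr1, the chemerin receptor of macrophages and dendritic cells, was at 11.7 and 8.30 CPM in WT and at 4.70 and 5.11 CPM in Sphk2 KO (fitted log2 fold change -1.03, SE 0.277, adjusted p by edgeR = 0.3935). Gpr35, the member with the most counts, was at 201 and 229 CPM in WT and at 163 and 172 CPM in Sphk2 KO (fitted log2 fold change -0.36, SE 0.161). Ccr7, the lymph node homing receptor, gave -0.79 (SE 0.351), Ccr6 -0.66 (SE 0.310), Ccr9 -0.58 (SE 0.288), Cx3cr1, a receptor of patrolling monocytes, -0.63 (SE 0.359), and Gpr183, an oxysterol receptor, -0.45 (SE 0.239). On the other side of 0, Cxcr1, the closest relative of Cxcr2, was at 31.3 and 39.9 CPM in WT and at 39.3 and 43.4 CPM in Sphk2 KO (0.22, SE 0.176), and Ltb4r1, the high-affinity leukotriene B4 receptor, at 82.8 and 86.8 CPM in WT and at 107.9 and 89.5 CPM in Sphk2 KO (0.22, SE 0.155). Ccrl2, an atypical receptor, gave -0.26 (SE 0.271), Cxcr5 -0.03 (SE 0.177) and Ccr3, the eotaxin receptor, 0.05 (SE 0.273). Cx3cr1, Ccr3 and Ccr9 are also on the marker lists above.

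**Figure D4:**
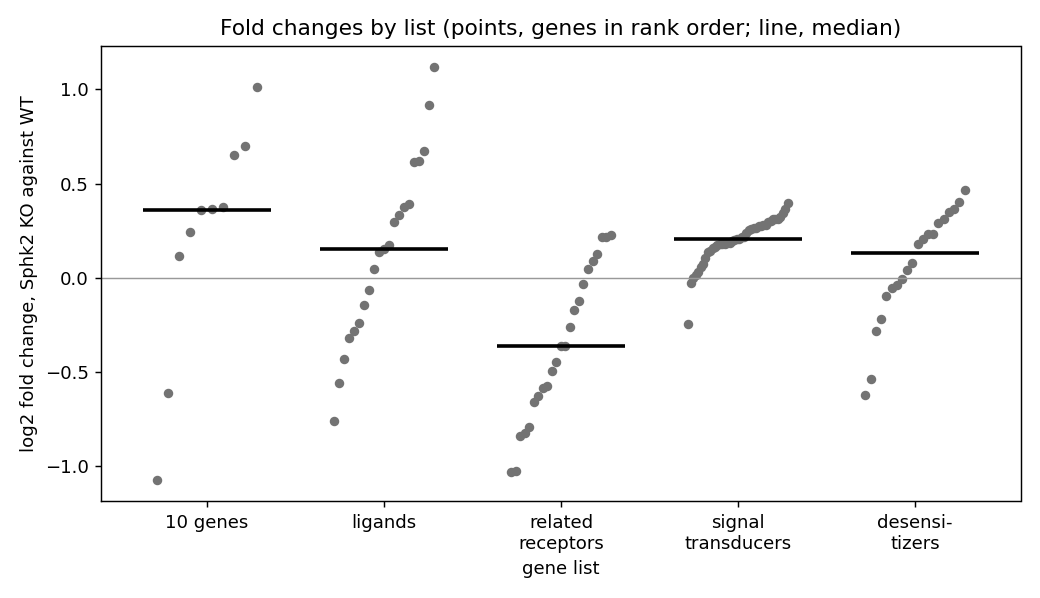
Log2 fold changes between Sphk2 KO and WT (y axis) of the tested genes of each list, each point a gene in rank order and each line the median of its list. The medians are 0.36 for the 10 genes, 0.15 for ligands, -0.36 for related receptors, 0.21 for signal transducers and 0.13 for desensitizers, and 0 genes of these lists were called by edgeR.

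Downstream of the receptors, 42 of 44 transducers of the signal were tested and 0 were called. Values lay above 0 in 39 of them and below 0 in 3, with a median of 0.21. Both Sphk2 KO libraries lay above both WT libraries in 21 of the 42 genes and below in 0, where 20.5% of all tested genes lay above and 22.7% below. Plcb2, the phospholipase C that G protein subunits activate, was at 138 and 144 CPM in WT and at 195 and 169 CPM in Sphk2 KO (fitted log2 fold change 0.37, SE 0.157, adjusted p by edgeR = 0.4705). The calcium channel gene Orai1 gave 0.34 (SE 0.162). The members with the most counts, Syk (0.18, SE 0.293) and the Src family kinase gene Fgr (0.18, SE 0.271), overlapped between the genotypes. Summed over the list, levels were 14076.5 and 17546.6 CPM in WT against 17796.2 and 18918.4 CPM in Sphk2 KO, so WT replicate 1 stood apart from the other 3 libraries.

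Of 23 genes that switch the receptors off or remove them 20 were tested, with 0 called. Values lay above 0 in 12 and below 0 in 8, with a median of 0.13. Sphk2 KO lay above WT without overlap in 9 of the 20 and below in 3. Among all tested genes 20.5% lay above and 22.7% below. Grk3, a kinase that phosphorylates active receptors, Cxcr4 among them, was at 51.5 and 46.9 CPM in WT and at 37.6 and 26.5 CPM in Sphk2 KO (fitted log2 fold change -0.62, SE 0.196, adjusted p by edgeR = 0.412). Rgs18 (0.46, SE 0.198) and Rgs14 (0.40, SE 0.183), which speed up the inactivation of G proteins, were higher in both Sphk2 KO libraries. The members with the most counts, the receptor kinase gene Grk2 (0.23, SE 0.238) and Rgs2 (0.29, SE 0.255), did not pass the test, and the genotypes overlapped in Rgs2. With WT replicate 2 left out edgeR called 3 ligands, 3 related receptors, 0 transducers and 2 desensitizers, where 5.93% of all genes in that fit were called. With Sphk2 KO replicate 1 left out it called 2, 2, 0 and 1 of them, against 3.57% of all genes. With WT replicate 1 left out it called 1 ligand and 0 of the other lists, against 0.319%, and with no count filter 2 ligands, 1 related receptor and 0 of the other lists, against 2.07%.

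**Figure D5:**
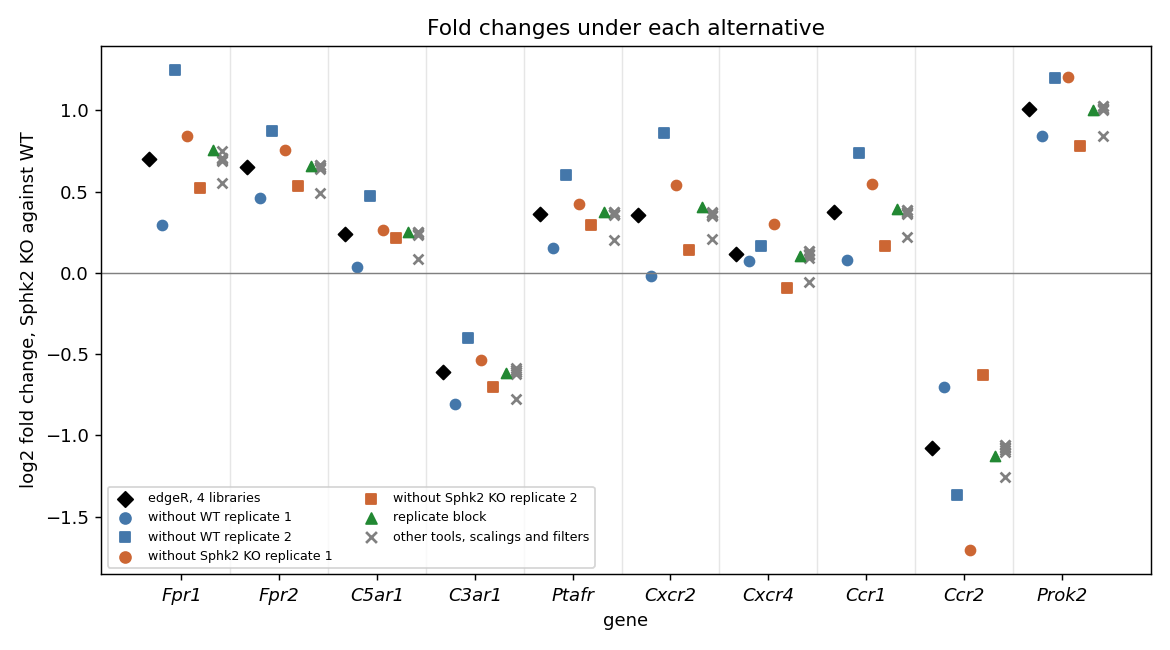
Log2 fold change of each gene (y axis) with all 4 libraries (black diamonds), without 1 library (blue and orange), with a term for the replicate number (green triangles) and with other tools, scalings and filters (gray crosses). Prok2 stays between 0.78 and 1.20 and Ccr2 between -1.71 and -0.63, and values of Cxcr2 and Cxcr4 fall on both sides of 0.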

How the data were processed

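Per the labels' protocols, poly(A) RNA of sorted MDSCs went into directional, paired-end libraries. The authors deposited raw counts by Ensembl gene ID. The submitters' processing notes name Trim Galore, STAR, featureCounts, DESeq2 and the build GRCm39. Versions, annotation release, strand setting and handling of multiply mapped reads were not given in the sources used here, so overlapping genes and near copies are uncertain.

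A symbol was found for 52083 of 55416 IDs (94.0%) and for 206 of 207 list entries, Nherf1 being the exception. edgeR 4.0.16 (R 4.3.3) tested genotype in all 4 libraries with filterByExpr, TMM and the quasi-likelihood F test, with Benjamini-Hochberg adjustment over 16566 genes. Standard errors are the absolute log2 fold change over the root of F. TPM was computed with GENCODE M21 exon lengths. The procedure was also run on simulated counts drawn independently for each library, and the outcome is not reported here. That simulation held no deviation shared by same-numbered libraries.

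The genes and lists were chosen with earlier results of these data known. Named were the 10 genes, ligands and related receptors with a mean of at least 5 CPM, the 3 smallest p and the 2 members with the most counts among transducers and desensitizers, the 2 markers of a list with the most counts, and the genes most like Cxcr2 and Ccr2. Some genes that this rule selects are not reported here. Other genes named with values were chosen after their values were seen. The test was repeated with DESeq2 1.42.0, limma-voom (limma 3.58.1), RLE factors or library size as the scaling, without a count filter or with one of 1 CPM in 2 libraries plus 100 counts in sum, with robust moderation, with replicate number as a block, and with each library left out.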

Additional observations from a re-analysis of the deposited data

How the results depend on the processing

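Over all tested genes, 18 were called with edgeR and 76 with DESeq2, 615 without the count filter, 2637 with the replicate block, and 54 to 1061 with a library left out. Of the 10 genes, 0 were called in the main test, 1 with DESeq2 (Prok2), 4 without the count filter (Prok2, Ccr2, Fpr1 and Fpr2), 6 with the replicate block (these and C3ar1 and Ptafr), and 0 to 5 with a library left out (5 without WT replicate 2, 2 when Sphk2 KO replicate 1 was left out). The same-numbered libraries deviated together (r = 0.438 across genes, which are not independent replicates). With 2 pairs and no word on pairing in the labels, what these libraries share beyond a number is not known. The median of the 10 genes was 0.36, and 0.077 to 0.67 with a library left out (lowest without WT replicate 1, highest without WT replicate 2, and 0.19 when Sphk2 KO replicate 2 was left out). With a library left out, Cxcr2 ranged from -0.016 (without WT replicate 1) to 0.858 (without WT replicate 2) and Cxcr4 from -0.092 (Sphk2 KO replicate 2 left out) to 0.299 (Sphk2 KO replicate 1 left out). Scaling by library size alone put Cxcr4 at -0.058 and the median of all genes at -0.174. The other 8 genes kept their direction in all 12 alternatives. With a library left out, the difference in the log2 ratio of Ccr2 to Cxcr2 ranged from -2.30 to -0.77, and that of Cxcr4 to Cxcr2 from -0.69 to 0.09, with its sign turned without WT replicate 1. The genotypes did not overlap in 7 of the 10 genes with TMM or RLE scaling and in 6 with library size alone. The replicate block called 6 of 21 ligands, 8 of 23 related receptors, 3 of 42 transducers and 5 of 20 desensitizers, all 0 in the main test. Beside these and the 6 of the 10 genes, it called 2637 of all 16566 tested genes. Causes of these differences were not tested. Where a library was left out, the lone library of a genotype was assumed to vary like the other 2. C3ar1 had the fewest counts of the 10 genes (70 to 134 a library), and Prokr1 and Prokr2 had too few to be tested.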

Other observations

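Ccr1 and Ccr2 lie in 1 cluster of chemokine receptor genes on chromosome 9 in which values of both signs lay side by side. In gene order (GENCODE M21) the tested genes from Ccr9 to Ccr2 had log2 fold changes of -0.58 (Ccr9), -0.42 (Lztfl1), -0.09 (Fyco1), 0.13 (Cxcr6), 0.37 (Ccr1), -0.59 (Ccr1l1), 0.05 (Ccr3) and -1.08 (Ccr2), and none was called by edgeR. Ccr1l1, the gene next to Ccr1, had 16 to 50 counts in a library. The genes were picked by position after the values of Ccr1 and Ccr2 were seen.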
